A study of Mus musculus with 23 samples.

Results

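Most of the 103 genes described here encode subunits of the 3 nuclear RNA polymerases, of Mediator and of the general transcription factors. The 103 were chosen by name alone from the 22619 named genes of the annotation. They are every gene whose symbol begins with Polr1, Polr2 or Polr3, with Gtf2 or Gtf3, or with Med or Taf followed by a digit, other than Taf15. The rule also took in the TFII-I family (Gtf2i, Gtf2ird1 and Gtf2ird2), the SAGA-type TAFs Taf5l and Taf6l, and the polymerase II associated Polr2m. No measured value entered the rule, though the set was chosen with earlier results of these data known. The RNA-seq libraries came from B6D2F1 (C57BL/6 x DBA/2) mouse oocytes that were injected at the germinal vesicle stage with siRNA mixes against Etv5, Mlx or Rfx1, or with a control siRNA of random sequence (siCtrl), then matured in vitro and fertilized. The 2-cell embryos of the siEtv5, siMlx, siRfx1 and siCtrl groups were collected late, at 36 h post fertilization by the labels, with 3 libraries a group apart from siEtv5 with 2. The zygotes of the same 4 groups were collected at 14 h by the labels, with 3 libraries each, which made 23 libraries in 8 groups. All groups, siCtrl included, shared the oocyte injection and in vitro maturation. The labels describe fertilization by incubation with sperm, whereas the study's methods describe sperm injection and give later collection times for both stages.

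RNA polymerase I transcribes the large ribosomal RNA genes, RNA polymerase II the protein-coding genes, and RNA polymerase III the tRNA and 5S rRNA genes. Each needs factors that recognise its promoters, and these are SL1 for polymerase I, TFIIA to TFIIH with the TBP-containing TFIID complex for polymerase II, and TFIIIA and TFIIIC for polymerase III. Mediator bridges activators and polymerase II through head, middle and tail modules on a Med14 backbone, with a detachable kinase module. After fertilization the mouse embryo lives at first on transcripts stored in the oocyte, and major transcription from its own genome begins at the 2-cell stage, so transcripts of this machinery can be either maternal leftovers or new products.

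Promoter windows from RefSeq (build GRCm38.p6, 250 bases before to 50 bases after an annotated start) were found for 88 of the 103 members, 104 windows in all. They were rich in CpG. The median member window held 22 CpG dinucleotides, against 7 over all 32851 windows of the table. The 8 letters CCGGAAGT, a site of ETS factors, stood on either strand of 20.2% of the member windows and of 3.89% of all windows. The E-box CACGTG stood in 20.2% of the member windows and in 7.15% of all windows. A TATA box (TATAAA, either strand) stood in 12.5% of the member windows and 13.6% of all, and the RFX half-site GTTGCC in 14.4% and 12.5%. A match is a run of letters and not a bound site, and the motifs were counted separately where they overlapped.

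Windows of 5 genes are printed because the results below turn on their genes. They are those of Med29, the member with the largest difference between the stages in siCtrl embryos, of Polr1c, a subunit shared by polymerases I and III that was higher in 2-cell embryos, of Taf9b, a TFIID subunit that all but disappeared by the 2-cell stage, and of Taf3 and Gtf2a1, which were higher in siRfx1 2-cell embryos. Capitals mark the ETS site in Polr1c and the E-box in Gtf2a1 and Taf9b. The windows lie on the minus strand at chr7:28392641-28392940 (Med29), chr17:46247996-46248295 (Polr1c), chr2:10048560-10048859 (Taf3), chr12:91590438-91590737 (Gtf2a1) and chrX:106221109-106221408 (Taf9b) of GRCm38.p6.
Med29: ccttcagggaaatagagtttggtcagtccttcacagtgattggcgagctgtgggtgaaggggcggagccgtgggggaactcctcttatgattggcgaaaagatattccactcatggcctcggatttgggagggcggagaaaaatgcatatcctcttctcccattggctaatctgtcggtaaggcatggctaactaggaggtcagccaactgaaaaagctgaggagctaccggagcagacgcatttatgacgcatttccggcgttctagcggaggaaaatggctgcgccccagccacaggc
Polr1c: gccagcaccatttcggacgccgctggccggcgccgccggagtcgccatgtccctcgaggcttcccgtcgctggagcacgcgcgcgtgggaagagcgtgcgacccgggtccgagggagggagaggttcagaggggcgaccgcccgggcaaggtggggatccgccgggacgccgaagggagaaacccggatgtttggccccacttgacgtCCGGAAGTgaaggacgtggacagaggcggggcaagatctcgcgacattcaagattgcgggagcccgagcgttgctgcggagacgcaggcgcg
Taf9b: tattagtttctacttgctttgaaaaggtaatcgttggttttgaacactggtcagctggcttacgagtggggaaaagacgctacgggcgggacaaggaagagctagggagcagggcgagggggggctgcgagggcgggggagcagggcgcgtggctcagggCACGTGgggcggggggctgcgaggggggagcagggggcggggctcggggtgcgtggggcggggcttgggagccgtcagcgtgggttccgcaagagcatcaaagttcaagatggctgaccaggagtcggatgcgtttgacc
Taf3: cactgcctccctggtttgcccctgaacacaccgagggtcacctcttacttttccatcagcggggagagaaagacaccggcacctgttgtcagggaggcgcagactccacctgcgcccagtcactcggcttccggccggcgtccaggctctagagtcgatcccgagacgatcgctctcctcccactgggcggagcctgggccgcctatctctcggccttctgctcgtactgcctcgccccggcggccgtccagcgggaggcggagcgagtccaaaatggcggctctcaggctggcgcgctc
Gtf2a1: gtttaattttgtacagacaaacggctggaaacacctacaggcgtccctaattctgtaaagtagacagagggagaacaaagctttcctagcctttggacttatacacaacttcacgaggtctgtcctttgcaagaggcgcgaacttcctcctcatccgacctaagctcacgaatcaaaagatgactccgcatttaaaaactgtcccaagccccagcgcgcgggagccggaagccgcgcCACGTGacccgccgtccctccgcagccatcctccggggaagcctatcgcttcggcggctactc

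Counted from the annotated start, the ETS site of Polr1c began at position -42, the E-box of Gtf2a1 at -13 and that of Taf9b at -90. Gtf2a1 and Taf9b had 2 windows each in the table, of which 1 is shown. The window shown was chosen as the first that held any of the 4 motifs, so its E-box does not describe the other window. The Med29 and Taf3 windows held none of the 4 motifs as spelled, which says only that these letters are not in these windows. Of the windows whose gene was lower in 2-cell siCtrl embryos, 6 of 15 held the ETS site, against 8 of 55 windows whose gene was higher. The same counts were 3 of 15 against 11 of 55 for the E-box, 3 of 15 against 7 of 55 for the TATA box and 1 of 15 against 10 of 55 for the RFX half-site, and none of these differences was tested.

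Expression was taken as FPKM (fragments scaled for transcript length and library total), summed over the transcripts of a gene as deposited. Because of the scaling for length, levels of different genes can be set side by side. In bulk embryos fewer cells and less RNA per cell cannot be told apart, and neither can transcript loss from slower synthesis. By the study's methods the reverse transcription used oligo-dT, and the part of poly(A) tail length in the levels was not tested. The 3 siRfx1 2-cell libraries were shallow, with 119 to 174 Mb of aligned bases against 404 to 991 Mb in the other 20, and 82 to 90 members reached 1 FPKM in them against 95 to 100 in 2-cell siCtrl libraries. In these 3 libraries a summed list of 10 oocyte markers stood at 777 to 946 FPKM against 373 to 449 FPKM in 2-cell siCtrl, and 11 genes of the 2-cell program at 264 to 378 FPKM against 653 to 906 FPKM. The part of depth and of stage in the siRfx1 results was not tested. Each target was lower in its own siRNA group than in siCtrl zygotes, with all libraries apart. At the 2-cell stage the same held for Etv5 and Rfx1, whereas Mlx stood at 0.836, 2.26 and 4.05 FPKM in the siMlx libraries and at 2.42, 4.42 and 3.74 FPKM in siCtrl, so the third siMlx library was not reduced. Of 11 cumulus and granulosa markers at least 7 were listed at 0 in every library of every group, and their sum was 29.2 to 68.4 FPKM in 2-cell siCtrl embryos against 5.71 to 8.67 FPKM in siCtrl zygotes. The sum of 7 sperm and spermatid markers was 0 to 4.72 FPKM against 21.5 to 34.8 FPKM. The part of either list in the stage results was not tested. The study's methods state that the RNA-seq was repeated for each group, but the labels do not say which collection of embryos a library came from, so a p-value here reflects library-to-library spread that may in part be technical.

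The first comparison asked how the machinery's transcripts differed between the 2-cell stage and the zygote, within siCtrl embryos. Of the 97 members whose mean reached 1 FPKM, 52 rose and 14 fell in 2-cell embryos in limma (more than 2-fold, Benjamini-Hochberg adjusted p below 0.05). Over all 11123 genes tested the shares were 37% higher and 26.9% lower, and in the members they were 53.6% and 14.4%. The median member differed by 1.03 on the log2 scale of (FPKM + 1), against 0.27 for the median gene. On FPKM without rescaling between libraries both medians moved up, to 1.28 and 0.52. The 6 members left out for low values were Gtf2h2, Gtf2ird2, Med12, Med12l, Taf1a and Taf6l. Taf1a lies on an unplaced piece of chromosome 1, and all 157 transcripts on such pieces were listed at 0 in every library. The plot of stage change by complex gives every tested member.

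**Figure D1:**
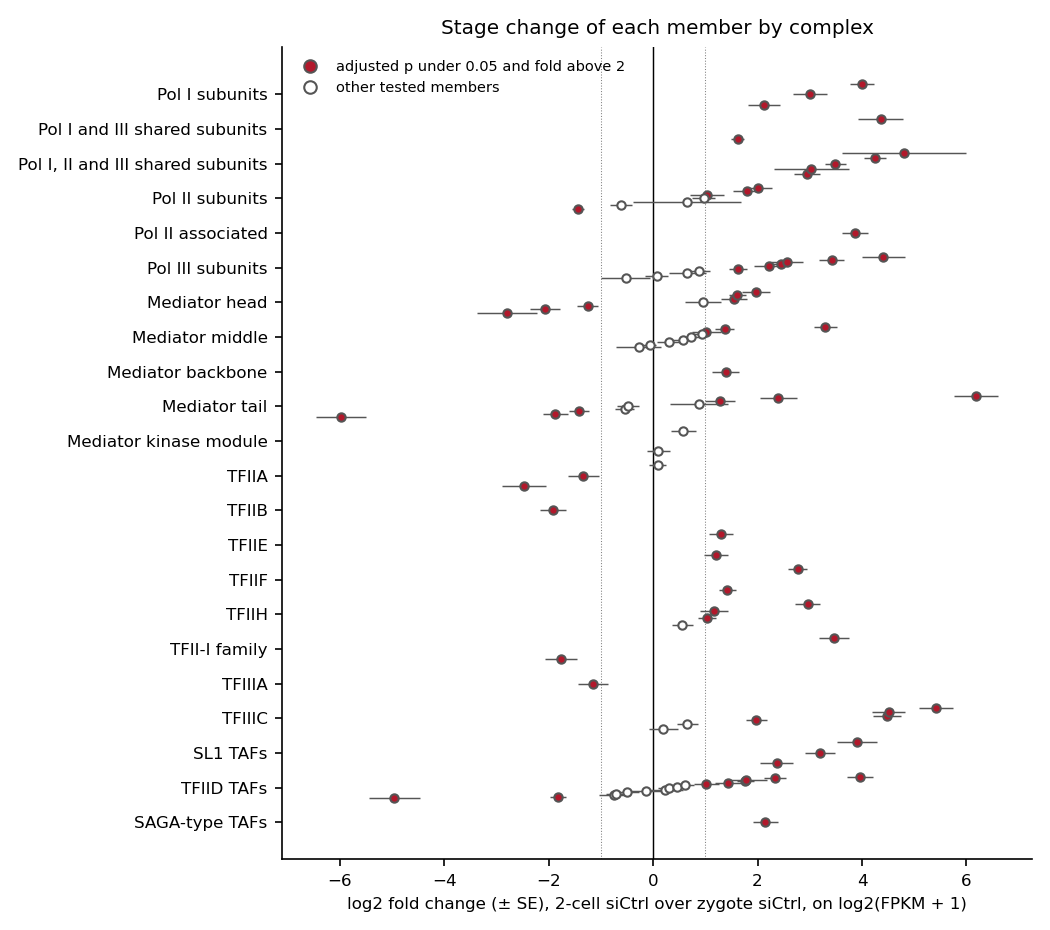
Log2 fold change (± SE, limma, on log2(FPKM + 1)) of each tested member in 2-cell siCtrl embryos over siCtrl zygotes, 1 point a gene, arranged by complex, with filled points for members past the threshold. All 5 subunits shared by the 3 polymerases lie to the right of 0, Mediator tail members lie between -5.98 and 6.19, and the dotted lines mark a fold of 2.

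Polymerase subunits were mostly higher in 2-cell embryos. Of the 27 core and specific subunits, 19 rose and only Polr2c fell, where 37% and 26.9% of all genes did. The median of the 27 was 2.12. The 5 subunits common to all 3 enzymes (Polr2e, Polr2f, Polr2h, Polr2k and Polr2l) all rose. Polr2h stood at 261, 288 and 250 FPKM in 2-cell siCtrl embryos and at 8.92, 14.1 and 9.91 FPKM in siCtrl zygotes. All 3 libraries of one stage were far from all 3 of the other, a log2 difference of 4.25 ± 0.21 (SE, adjusted p = 4.2e-06). Polr2l stood at 151, 218 and 176 FPKM against 12.1, 13.4 and 12.0 FPKM. Polr2f was less well measured, since it stood at 133, 124 and 122 FPKM in 2-cell embryos but at 0.776, 0 and 34.7 FPKM in zygotes (4.81 ± 1.19, adjusted p = 0.007), and Polr2k was listed at 0 in 2 of 3 siCtrl zygotes.

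The polymerase I set followed the same direction. Polr1b, the second-largest subunit of the enzyme, stood at 37.2, 45.8 and 37.2 FPKM in 2-cell siCtrl embryos and at 1.60, 0.896 and 1.23 FPKM in zygotes, a log2 difference of 4.01 ± 0.23 (adjusted p = 6.3e-06). Polr1a, the largest subunit, stood at 7.60, 9.89 and 9.22 FPKM against 1.12, 0.417 and 1.68 FPKM (2.12 ± 0.31). Polr1e rose by 3.01 ± 0.32, and the subunits shared with polymerase III, Polr1c and Polr1d, by 4.36 ± 0.43 and 1.62 ± 0.13. Polr1d was already abundant in zygotes, at 140, 135 and 146 FPKM. Among the TAFs of SL1, which load TBP at ribosomal RNA promoters, Taf1b, Taf1c and Taf1d each rose, by 2.37, 3.91 and 3.19. Polymerase I genes named outside the rule showed 4 of 5 risen and none fallen, beside 37% and 26.9% of all genes.

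In polymerase III the pattern split by subunit. Of the 10 subunits specific to it, 6 rose and none fell, where 37% and 26.9% of all genes did. Polr3g, one of an interchangeable pair of subunits, stood at 35.3, 34.4 and 53.1 FPKM in 2-cell siCtrl embryos and at 1.85, 0 and 0.805 FPKM in zygotes (4.41 ± 0.41, adjusted p = 4.1e-05). Polr3a and Polr3b, which form the catalytic core, differed unequally. Polr3b rose, with 12.6, 15.8 and 12.5 FPKM against 2.59, 1.74 and 1.04 FPKM, while Polr3a, with 14.6, 15.7 and 14.1 FPKM against 6.66, 5.77 and 6.52 FPKM, had an adjusted p of 0.0047 but a fold under 2. Polr3f stood at 17.0, 13.2 and 19.9 FPKM in 2-cell embryos and at 14.3, 12.1 and 12.98 FPKM in zygotes, and did not pass.

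TFIIIC, which binds the internal promoters of tRNA genes, held 3 of the largest rises. Gtf3c5 stood at 56.4, 68.2 and 67.5 FPKM in 2-cell siCtrl embryos and at 1.11, 0 and 0.213 FPKM in zygotes (5.41 ± 0.32, adjusted p = 6.5e-06). Gtf3c4 stood at 42.4, 39.9 and 51.4 FPKM against 1.46, 0.181 and 0.865 FPKM, and Gtf3c6 at 37.5, 54.2 and 62.7 FPKM against 0.754, 1.35 and 1.02 FPKM. These 3 subunits were close to 0 in the zygote, whereas Gtf3c2 was present at both stages, with 34.2, 33.3 and 39.2 FPKM against 22.9, 17.9 and 15.5 FPKM. Gtf3a, the TFIIIA of 5S rRNA genes, fell by 1.15 on the log2 scale, with 22.8, 17.3 and 29.8 FPKM against 32.7, 61.1 and 41.0 FPKM. Its reads overlap Mtif3 on the opposite strand, which the counting could not separate. Of the 10 polymerase III genes outside the rule, 8 rose and none fell, where 37% and 26.9% of all genes did. The 10 include Brf1 and Bdp1 of TFIIIB.

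Subunits specific to polymerase II had a median of 0.97, against 3.01 for polymerase I and 1.92 for polymerase III. Of 7, Polr2a, Polr2b and Polr2i rose and Polr2c fell, beside 37% and 26.9% of all genes. Polr2a, the largest subunit, whose tail carries the heptad repeats, stood at 19.4, 22.3 and 16.7 FPKM in 2-cell siCtrl embryos and at 3.37, 3.27 and 5.64 FPKM in zygotes (1.80 ± 0.26, adjusted p = 4.5e-04). Polr2c, which helps to seed assembly of the enzyme, fell, with 306, 333 and 302 FPKM against 695, 727 and 728 FPKM (-1.45 ± 0.11, adjusted p = 1.9e-05), and was the most abundant member in siCtrl zygotes by mean. It overlaps Dok4 on the opposite strand. The levels of Polr2d scattered within the 2-cell group, at 12.4, 255 and 273 FPKM, so that its difference was not resolved (0.65 ± 1.04). Its reads were assigned to one or other of 2 transcripts of nearly equal length from library to library. Polr2m, which encodes a polymerase II associated protein, rose by 3.87.

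The general factors of polymerase II differed by complex. TFIIE, which recruits TFIIH, TFIIF, which escorts the polymerase, and TFIIH, which opens the DNA, were mostly higher in 2-cell embryos. TFIIE, TFIIF and TFIIH had 7 of 8 tested members risen and none fallen, beside 37% and 26.9% of all genes. Gtf2h5, a small TFIIH subunit that also serves DNA repair, stood at 191, 204 and 217 FPKM in 2-cell siCtrl embryos and at 24.4, 26.1 and 14.8 FPKM in zygotes. Gtf2f1, the large subunit of TFIIF, stood at 49.9, 52.0 and 57.1 FPKM against 6.26, 5.43 and 5.52 FPKM. Gtf2b, which is TFIIB, fell by 1.92 on the log2 scale, with 32.7, 31.7 and 59.5 FPKM against 140, 130 and 114 FPKM. Gtf2a2, the small subunit of TFIIA, fell by 2.47, with 11.2, 11.0 and 2.98 FPKM against 36.6, 42.3 and 36.4 FPKM, while the large subunit Gtf2a1 differed by 0.08 ± 0.16.

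Mediator subunits differed in both directions. Of 28 tested subunits 10 rose and 6 fell, where 37% and 26.9% of all genes did. The share that rose was close to that of all genes, so the split is not particular to Mediator. The head and the tail each held 3 of either kind. The extreme changes of all members were in the tail. Med29 stood at 271, 337 and 281 FPKM in 2-cell siCtrl embryos and at 5.89, 2.12 and 1.00 FPKM in zygotes, a log2 difference of 6.19 ± 0.42 (adjusted p = 9.8e-06). Med30 fell, with 18.2, 4.49 and 19.7 FPKM in 2-cell embryos and 539, 789 and 768 FPKM in zygotes (-5.98 ± 0.48, adjusted p = 2.0e-05). The 2 stages did not overlap for either gene, and their directions were opposite within a single module. Med28, also of the tail, fell by 1.42, and Med15, which many activators contact, fell by 1.88. In the head Med18 and Med17 fell by 2.80 and 2.07 while Med20 and Med11 rose by 1.61 and 1.98. Med7 of the middle module rose by 3.30, and Med14, the backbone, by 1.39. Med10 was abundant and close at both stages, at 429, 496 and 404 FPKM against 383, 384 and 393 FPKM.

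In the kinase module Med12 and Med12l did not pass the filter on low values, and Med13 and Med13l did not pass the test. Over all libraries of a stage, the median of Med13 was 21.8 FPKM in 2-cell embryos and 6.06 FPKM in zygotes. That of Med13l was 13.2 and 5.84 FPKM. Med13 rose in siEtv5, siMlx and siRfx1 embryos, by 2.08, 1.37 and 2.11, whereas Med13l was not called in any of them. Of the partners of this module, Ccnc (cyclin C) rose by 2.13, Cdk8 differed by 0.61 (adjusted p = 0.03, fold under 2) and Cdk19 did not pass.

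TFIID recognises the core promoter through TBP and its TAFs. Of 16 TAFs, 6 rose and 2 fell, where 37% and 26.9% of all genes did. The share that rose was close to that of all genes, and the median TAF differed by 0.38. Taf8 rose most, by 3.96, with 25.1, 32.8 and 37.5 FPKM in 2-cell siCtrl embryos and 0.713, 0.754 and 1.04 FPKM in zygotes. Taf3, whose PHD finger binds methylated histone H3 at promoters, fell by 1.82 ± 0.16, with 43.7, 52.3 and 50.6 FPKM against 134, 146 and 160 FPKM. Taf1, Taf11 and Taf9 rose by 1.02, 1.44 and 1.77, and Taf9 was the most abundant member of 2-cell embryos, at 1293, 1194 and 1359 FPKM.

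TBP did not pass the fold limit. Tbp stood at 62.8, 56.5 and 64.4 FPKM in 2-cell siCtrl embryos and at 35.8, 35.9 and 33.9 FPKM in zygotes, a log2 difference of 0.53 ± 0.16 under a fold of 2. Tbpl2, the oocyte relative of TBP, stood at 0, 0 and 0.886 FPKM in 2-cell embryos and at 9.01, 7.10 and 4.28 FPKM in zygotes and fell. Among 20 tested pausing and elongation genes 8 rose and 3 fell, and among 10 SAGA and ATAC partners 4 rose and 2 fell, beside 37% and 26.9% of all genes.

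**Figure D2:**
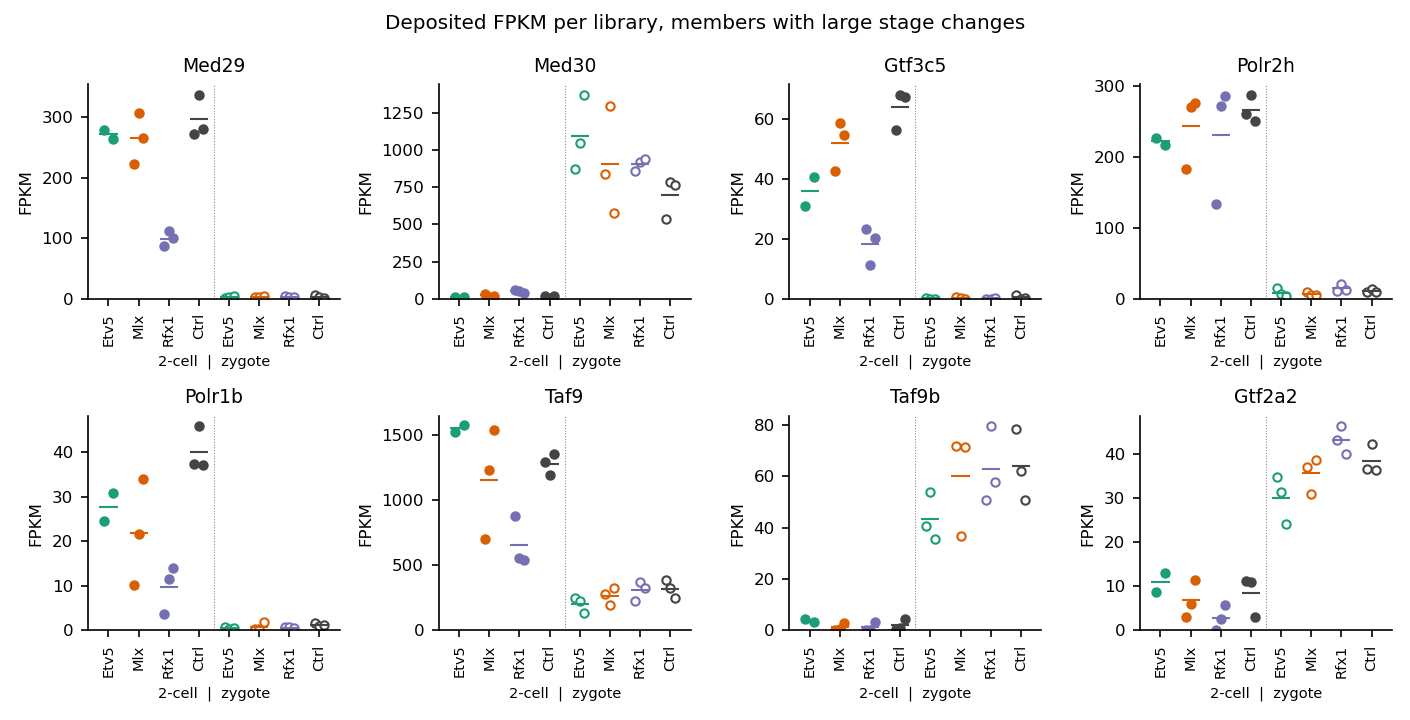
Deposited FPKM (linear axis from 0) of 8 members in each library, 2-cell groups with filled points left of the dotted line and zygote groups with open points right of it, coloured by siRNA, with a bar at each group mean. Med29, Gtf3c5, Polr2h, Polr1b and Taf9 are higher in 2-cell libraries and Med30, Taf9b and Gtf2a2 lower, with Med30 at 4.49 to 58.2 FPKM in all 2-cell libraries and at 539 FPKM or more in all zygote libraries.

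The same stage comparison could be made in 3 further sets of embryos that share no library with the siCtrl set or with each other. In siEtv5 embryos 58 of 99 tested members rose and 14 fell, where 37.9% and 23% of all genes did. In siMlx embryos 53 of 95 rose and 13 fell, where 35.4% and 29.2% of all genes did. In siRfx1 embryos 31 of 93 rose and 18 fell, where 18.7% and 29.7% of all genes did, and the median member differed by 0.55 against -0.24 for the median gene. Of the 92 members tested in all 4 sets, 28 rose in every set and 6 fell in every set, where 16.4% and 15.7% of the 9265 genes tested in all 4 sets did. No member was called higher in one set and lower in another, while 68 of the 92 had the same sign in all 4 sets, called or not. These agreement counts were not set beside those of all genes, so they cannot be read as particular to the members. The siEtv5 set had 2 libraries at the 2-cell stage, and with either left out its count of 72 called members became 39 (without replicate 1) or 38 (without replicate 2).

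The 6 that fell in every set were Med30, Taf9b, Gtf2a2, Gtf2ird1, Polr2c and Med28. Those that rose in every set included Polr1b, Polr1c, Polr1d and Polr1e of polymerase I, Polr3b, Polr3e and Polr3g of polymerase III, the SL1 subunit Taf1d, 4 TFIIIC subunits, and Med29 and Med7 as the sole Mediator subunits. Of the subunits specific to polymerase II only Polr2b did so. By deposited FPKM, 30 members had every 2-cell library of all 4 groups above every zygote library, where 16.5% of the 10943 genes averaging 1 FPKM or more did, and 6 had every 2-cell library below, where 11.7% did. Without the siRfx1 libraries 46 members were wholly above and 8 wholly below, among 29.5% and 15% of genes. Among the 27 polymerase subunits 19 rose in each of the siEtv5, siMlx and siCtrl sets and 12 in the siRfx1 set. Over all genes 37.9%, 35.4%, 37% and 18.7% rose in that order. In Mediator the siRfx1 set had 3 risen and 8 fallen of 28 tested, where 18.7% and 29.7% of all genes did. The share that fell was close to that of all genes. The siCtrl set had 10 risen and 6 fallen, where 37% and 26.9% did, and the difference between the sets was not tested. The plot of stage change under each siRNA shows the 6 that fell and the 15 with the largest siCtrl rise among the 28.

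**Figure D3:**
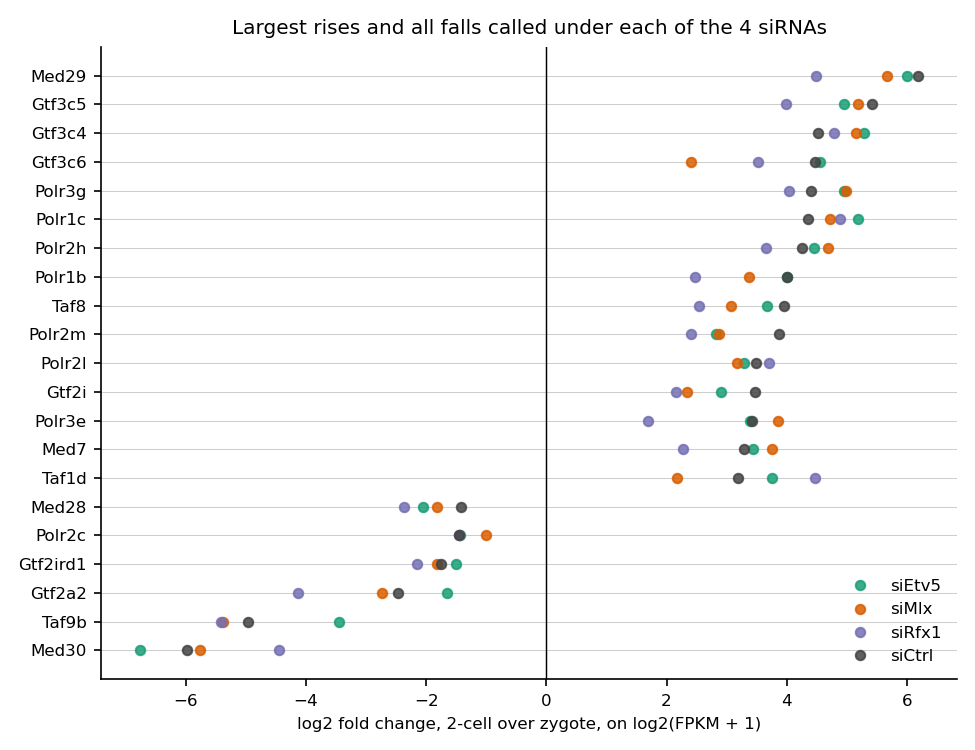
Log2 fold change in 2-cell embryos over zygotes (limma, on log2(FPKM + 1)) for the 6 members that fell in all 4 siRNA sets and the 15 with the largest siCtrl rise among the 28 that rose in all 4, 1 point for each siRNA. Med29 and Gtf3c5 lie at the upper end in siCtrl, at 6.19 and 5.41, and Med30 and Taf9b at the lower end, at -5.98 and -4.96.

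Several members have a paralogue, and the transcript shares of several pairs differed between the stages. A share describes the transcripts of a pair and not the make-up of a complex. Each share is the percentage of the pair's summed FPKM in a library, and the pairs were compared by a two-sided exact permutation test, for which 3 libraries against 3 cannot go below p = 0.1. Taf4b, the gonad-enriched relative of Taf4a, made up 74.7 ± 4.9% of its pair in 2-cell siCtrl embryos and 24.98 ± 1.86% in siCtrl zygotes (SD, n = 3 each, exact p = 0.1). Taf4b stood at 81.5, 58.5 and 80.3 FPKM in 2-cell embryos and at 12.96, 11.9 and 9.32 FPKM in zygotes, while Taf4a stood at 25.7, 26.0 and 21.7 FPKM and at 35.1, 36.5 and 30.7 FPKM. In siEtv5, siMlx and siRfx1 embryos the 2-cell share of Taf4b was also above every zygote share of the same group.

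Taf9b was a minor partner in zygotes and a trace in 2-cell embryos. It made up 0.140 ± 0.164% of the Taf9 pair in 2-cell siCtrl embryos and 16.6 ± 0.4% in zygotes (SD, n = 3 each, exact p = 0.1). Its level was 0.288, 0.839 and 4.46 FPKM in 2-cell embryos against 78.5, 62.0 and 50.8 FPKM in zygotes. Taf5l, the SAGA relative of the TFIID subunit Taf5, made up 67.4 ± 10.04% against 23.5 ± 3.6%. Polr3gl, the counterpart of Polr3g, made up 2.87 ± 2.71% against 72.5 ± 25.6%, but the zygote levels of both were at or under 1.85 FPKM. Gtf2ird1 made up 9.76 ± 3.33% of its pair with Gtf2i, against 99.3 ± 1.3%. Gtf2i, which encodes the TFII-I protein, was listed at 0 in 2 of 3 siCtrl zygotes and stood at 8.48, 12.5 and 14.8 FPKM in 2-cell embryos.

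The germ-cell relatives Gtf2a1l and Taf7l were at low level in 2-cell siCtrl embryos. Gtf2a1l, the testis and oocyte form of the TFIIA large subunit, stood at 0.764, 1.02 and 1.13 FPKM in 2-cell siCtrl embryos and at 4.26, 3.98 and 2.34 FPKM in zygotes, and was listed at 0 in every siMlx and siRfx1 2-cell library. Taf7l, the germ-cell relative of Taf7, was listed at 0 in all siCtrl zygotes and stood at 2.03, 5.47 and 1.47 FPKM in 2-cell embryos, where Taf7 stood at 260, 331 and 241 FPKM. Med13l made up 42.0 ± 7.0% of its pair with Med13 in 2-cell embryos and 50.7 ± 1.6% in zygotes, and the libraries overlapped (exact p = 0.2). Med12l and Med12 were both near 1 FPKM and their shares overlapped. Taf6l, the last of the 10 pairs examined, was listed at 0 in all 3 siCtrl zygotes and made up 8.75 ± 2.62% of its pair with Taf6 in 2-cell siCtrl embryos, and its shares overlapped between the stages in the other 3 siRNA groups.

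**Figure D4:**
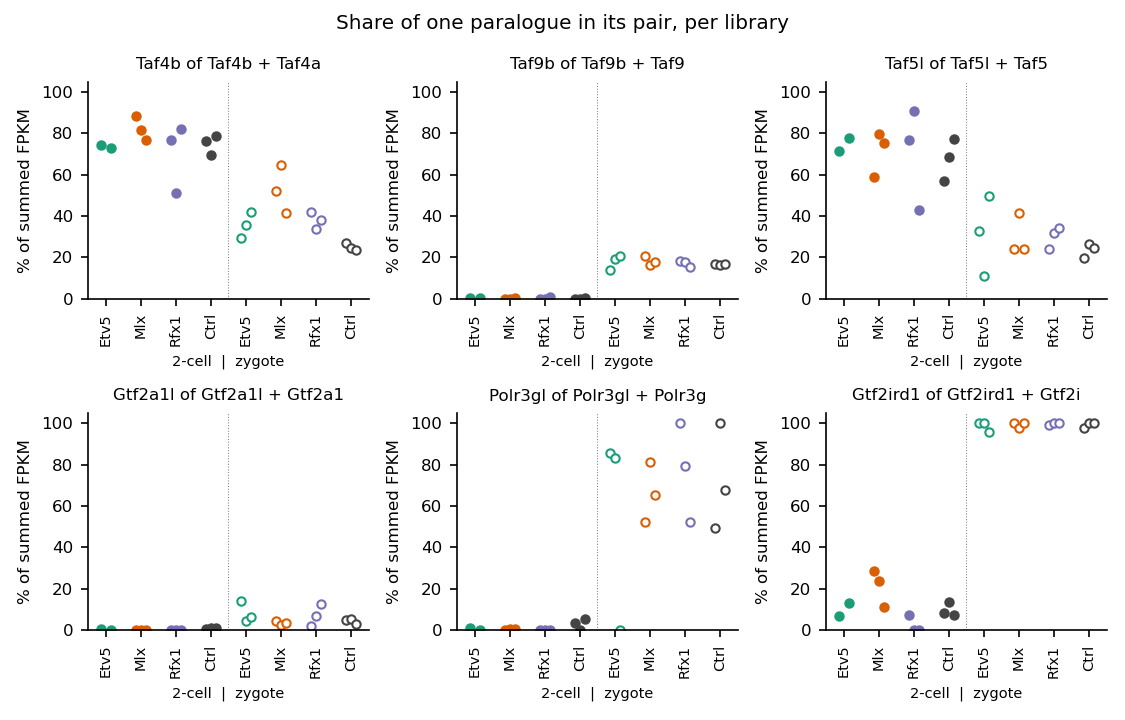
Percentage of a pair's summed FPKM taken by the first-named gene in each library, with 2-cell groups (filled) left of the dotted line and zygote groups (open) right of it, for 6 pairs. Taf4b and Taf5l take a larger share in the 2-cell libraries than in zygotes of the same siRNA, and Taf9b, Polr3gl and Gtf2ird1 a smaller one apart from a siEtv5 zygote library with Polr3gl at 0.

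The second question was whether silencing of Etv5, Mlx or Rfx1 altered these transcripts against siCtrl of the same stage. ETV5 is an ETS-family activator, MLX dimerises with Mondo and Mad proteins at E-boxes, and RFX1 binds X-box elements built of half-sites. In 4 of the 6 comparisons no member passed in limma, nor with voom on estimated fragments. These were zygote siEtv5 (0 of 82 members, where 0% of all genes were called) and zygote siRfx1 (0 of 84, where 0.0555% were called). The others were 2-cell siEtv5 (0 of 98, where 0.251% of all genes were called) and 2-cell siMlx (0 of 98, where 0.00945% were called). The median member differed by -0.11, 0.03, -0.01 and 0.12 in that order, and the median gene by -0.01, 0.00, 0.04 and -0.05.

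In siMlx zygotes 3 of 84 members fell and none rose, where 2.15% of all genes were called in either direction and 1.02% as lower. Med20, a Mediator head subunit that binds Med18, stood at 8.46, 6.92 and 9.08 FPKM in siMlx zygotes and at 28.6, 22.5 and 25.3 FPKM in siCtrl zygotes, a log2 difference of -1.21 ± 0.19 (limma, adjusted p = 0.032). Taf4a, a scaffold subunit of TFIID, stood at 13.3, 9.87 and 12.9 FPKM against 35.1, 36.5 and 30.7 FPKM (-1.10 ± 0.19, adjusted p = 0.038). Med23 of the tail stood at 2.18, 1.59 and 2.75 FPKM against 8.23, 7.14 and 6.67 FPKM (-1.13 ± 0.22, adjusted p = 0.043). In all 3 genes the groups did not overlap, yet each was close to the threshold. siEtv5 zygotes were low too for Med20, at 14.5, 6.02 and 4.66 FPKM, and with siEtv5 in place of siCtrl none of the 3 passed. With a library left out the count was 0 without any siCtrl zygote library or siMlx replicate 1, and 1 without siMlx replicate 3, so the 3 calls were kept together only without siMlx replicate 2. At the 2-cell stage the siMlx levels of Med20, at 48.2, 97.3 and 109 FPKM, overlapped those of siCtrl, at 91.3, 103 and 92.0 FPKM.

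In siRfx1 2-cell embryos 2 of 95 members passed, both higher, where 3.58% of all genes were called, 2.13% as higher. The share of members called higher, 2.11%, was thus close to that of all genes. Taf3 stood at 197, 344 and 172 FPKM in siRfx1 embryos and at 43.7, 52.3 and 50.6 FPKM in siCtrl embryos, a log2 difference of 2.90 ± 0.34 (limma, adjusted p = 0.012). Gtf2a1 stood at 242, 211 and 263 FPKM against 99.6, 83.1 and 102 FPKM (2.02 ± 0.25, adjusted p = 0.013). Although the siRfx1 libraries were shallow, the 2 genes had 101597 to 196796 aligned bases for Taf3 and 143285 to 239932 for Gtf2a1 in the siRfx1 libraries. Without rescaling of the libraries the 2 genes were still called and 13 further members fell, and the median of all genes then lay at -0.85 instead of -0.25. With siEtv5 embryos in place of siCtrl, or with any of the 3 siCtrl libraries left out, neither passed, and the count was 5, 6 and 4 without siRfx1 replicates 1, 2 and 3. After removal of a trend with transcript length Taf3 passed and Gtf2a1 did not (adjusted p = 0.061). Polr1d had an adjusted p of 0.048 and a fold just under 2.

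Zygote levels of Taf3 lay between 119 and 173 FPKM over all 4 groups. The 2-cell levels were 52.4 and 51.3 FPKM in siEtv5, 93.4, 66.9 and 56.3 FPKM in siMlx and 43.7, 52.3 and 50.6 FPKM in siCtrl, all below every zygote, whereas the siRfx1 2-cell libraries lay at the top of the zygote range or above it. For Gtf2a1 the siRfx1 2-cell libraries were above every other library of the series, where the highest was 122 FPKM.

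Whether the stage change itself differed between a knockdown and siCtrl was tested as an interaction. For siMlx no member of 97 passed (limma, and 0 with voom), where 1.17% of all genes did. For siEtv5 only Polr2b, the second-largest subunit of polymerase II, passed, where 0.315% of all genes did. Polr2b stood at 14.98 and 15.7 FPKM in siEtv5 2-cell embryos against 4.99, 6.34 and 9.18 FPKM in siCtrl, and at 0.509, 0 and 0 FPKM in siEtv5 zygotes against 2.71, 1.34 and 3.02 FPKM in siCtrl, so that its stage change was larger by 2.58 ± 0.47 on the log2 scale (limma, adjusted p = 0.044). It was close to 0 in the siEtv5 zygotes, and neither stage passed on its own. The 11 genes of the 2-cell program summed to 1251 to 1433 FPKM in siEtv5 2-cell embryos against 653 to 906 FPKM in siCtrl, and the 10 oocyte markers to 586 to 611 FPKM against 373 to 449 FPKM, and their part in this result was not tested. The call of Polr2b was kept in 3 of the 11 fits with a library left out.

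For siRfx1 8 of 95 members passed the interaction, 3 with a positive and 5 with a negative value (the 2-cell over zygote log2 ratio of siRfx1 embryos above or below that of siCtrl embryos), where 9.94% of all genes passed, so the share of members was close to that of all genes. Gtf2a1 (2.22 ± 0.31, adjusted p = 0.0026), Taf3 (2.46 ± 0.36, adjusted p = 0.0031) and Taf1 (1.69 ± 0.44, adjusted p = 0.034) had positive values. The log2 stage difference of Taf3 was 0.38 in siRfx1 embryos, not called, against -1.82 in siCtrl embryos, that of Gtf2a1 was 2.04 against 0.08, and that of Taf1 was 2.42 against 1.02. Taf1, the largest TFIID subunit, stood at 13.1, 19.3 and 21.1 FPKM in siRfx1 2-cell embryos against 7.02, 7.72 and 10.1 FPKM in siCtrl, and at 2.01, 2.76 and 1.42 FPKM in siRfx1 zygotes against 3.08, 2.84 and 2.82 FPKM. The interaction calls of Gtf2a1 and Taf3 held in all 7 alternatives and in all 12 fits with a library left out, whereas that of Taf1 held in 4 of the 12.

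The 5 with negative values were Taf10, Med22, Gtf3a, Med26 and Polr2a. In siRfx1 embryos the log2 stage difference was -4.48 for Taf10, -4.15 for Med22, -3.39 for Gtf3a and -1.62 for Med26, against -0.15, -1.25, -1.15 and 0.30 in siCtrl embryos in the same order, so that Med22 and Gtf3a fell in both sets and by more in siRfx1. Polr2a stood at 4.44, 5.17 and 3.41 FPKM in siRfx1 2-cell embryos against 19.4, 22.3 and 16.7 FPKM in siCtrl, and at 4.12, 3.62 and 3.12 FPKM in siRfx1 zygotes against 3.37, 3.27 and 5.64 FPKM, and its stage difference was 0.01 ± 0.33 in siRfx1 against 1.80 ± 0.26 in siCtrl embryos (interaction -1.54 ± 0.44, adjusted p = 0.049). Taf10, shared by TFIID and SAGA, stood at 0, 12.2 and 0 FPKM in siRfx1 2-cell embryos against 18.4, 35.2 and 31.3 FPKM in siCtrl (-4.21 ± 1.19, adjusted p = 0.047). Its siRfx1 2-cell values rested on 0 to 1101 aligned bases a library. The siRfx1 zygotes held 25133 to 30423 aligned bases of Taf10 and the siCtrl zygotes 7059 to 19122, not scaled for depth. Gtf3a stood at 5.00, 7.48 and 7.34 FPKM against 22.8, 17.3 and 29.8 FPKM in siCtrl 2-cell embryos (-2.01 ± 0.49, adjusted p = 0.028). Its siRfx1 2-cell values rested on 1129 to 1170 aligned bases a library. In zygotes Gtf3a stood at 85.6, 53.6 and 64.3 FPKM with siRfx1 and at 32.7, 61.1 and 41.0 FPKM with siCtrl. Med26, which links Mediator to elongation factors, stood at 22.6, 22.0 and 21.7 FPKM against 57.8, 77.6 and 62.3 FPKM in 2-cell embryos (-1.66 ± 0.41, adjusted p = 0.029). Its aligned bases, not scaled for depth, were 127140 to 183517 in siRfx1 zygotes and 60030 to 123771 in siCtrl zygotes. Each interaction value holds the difference between the zygote groups as well as that between the 2-cell groups.

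Med22 carries a limit in the zygotes. It stood at 4.58, 13.4 and 9.16 FPKM in siRfx1 2-cell embryos against 39.3, 27.9 and 27.6 FPKM in siCtrl, and at 62.0, 202 and 225 FPKM in siRfx1 zygotes against 57.5, 68.1 and 65.2 FPKM (-2.66 ± 0.64, adjusted p = 0.027). In the 2 high zygotes the reads were assigned to a transcript of 1367 bases, at 201 and 224 FPKM, which was listed at 0 in the other 21 libraries, where a transcript of 3466 bases carried the gene. Its aligned bases were 253895 and 291679 in those 2 zygotes and 127877 in the third. The number of members called was 2 to 5 with any of the zygote or siCtrl libraries left out, and 16, 20 and 19 without siRfx1 2-cell replicates 1, 2 and 3. Without rescaling, the interaction gave 14 members, 2 positive and 12 negative, against 3 and 5 with it.

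**Figure D5:**
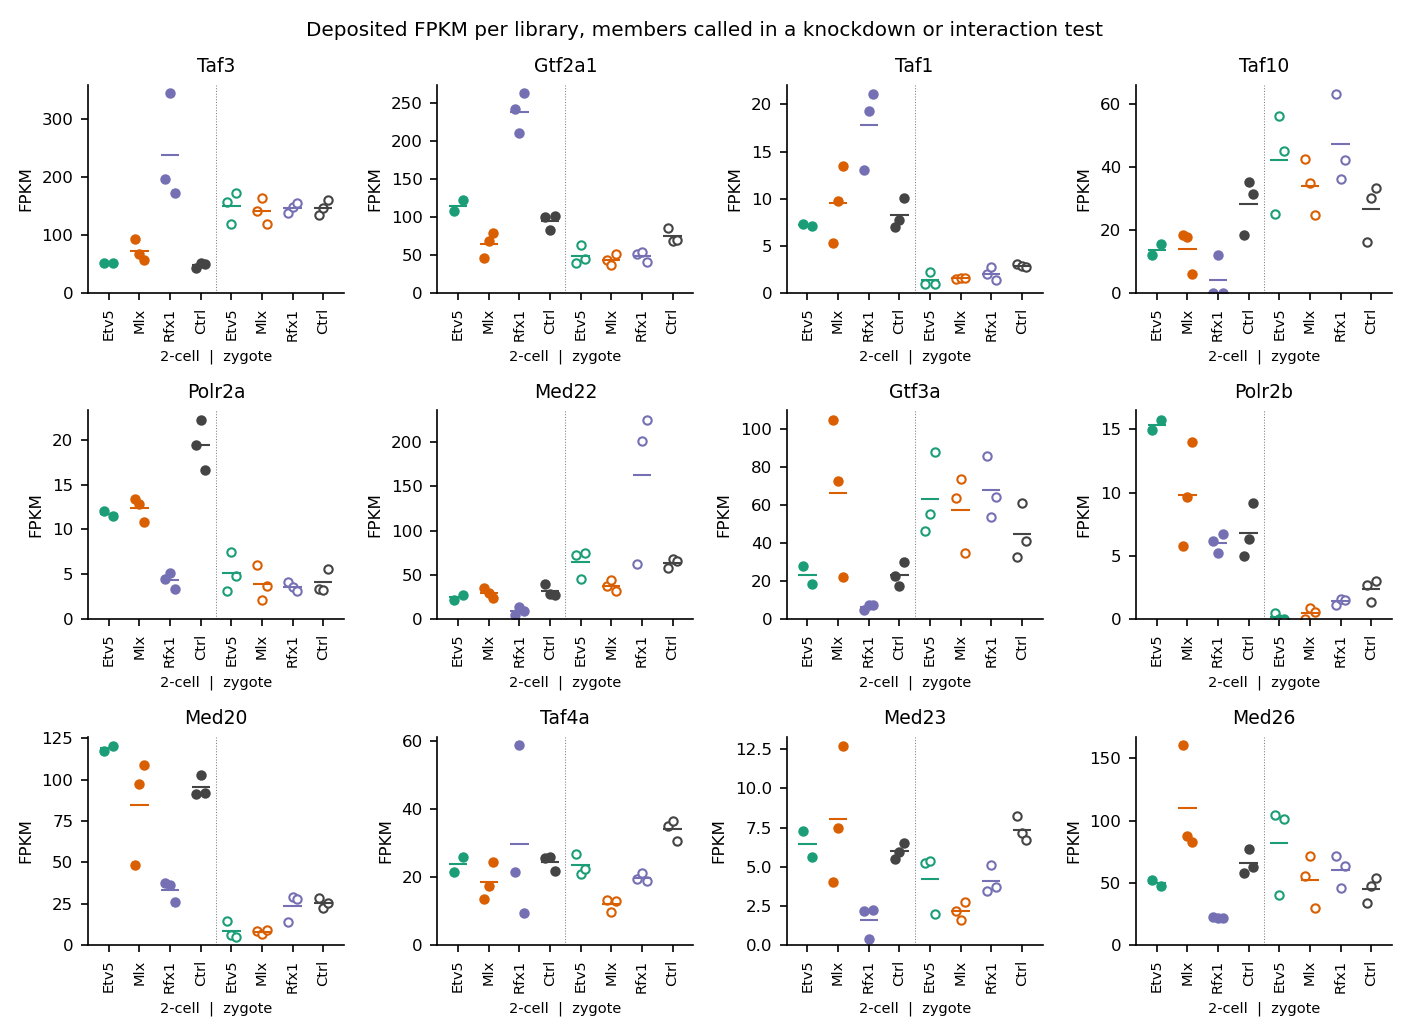
Deposited FPKM (linear axis from 0) in each library for the 12 members called in a knockdown or an interaction test, with 2-cell groups (filled) left of the dotted line, zygote groups (open) right of it, siRNA groups in colour and a bar at each group mean. Taf3 and Gtf2a1 are highest in siRfx1 2-cell embryos, Polr2a is at 3.41 to 5.17 FPKM there, and Med20, Taf4a and Med23 are lower in siMlx zygotes than in siCtrl zygotes.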

How the data were processed

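The members and gene lists were chosen with earlier results of these data known. Reads from 23 amplified, non-UMI libraries were aligned by the authors with STAR 2.5.2b to mm9, and the deposited tables hold FPKM per RefSeq transcript from StringTie (1.3.4 in the submitters' notes, 1.3.3b in the file headers). FPKM were summed here over the transcripts of a gene. The 976 transcripts with no gene name took 0.610% to 1.48% of the FPKM of a library and were left out.

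Gene FPKM were rescaled between libraries by the median ratio, genes with a mean under 1 were removed, and log2(FPKM + 1) was tested with limma 3.58.1 in R 4.3.3, with Benjamini-Hochberg adjustment over all genes. FPKM are not counts, so no count model was the main test. Calls needed more than 2-fold change and an adjusted p below 0.05. Fold changes on this scale understate those of low genes. The 6 knockdown, 4 stage and 3 interaction tests each had their own fit, and knockdown comparisons of a stage share the siCtrl libraries.

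Named genes were every member called in a knockdown or interaction test, the largest stage changes, and members of each class and paralogue pair. Of the 103 members 18 overlap a gene on the opposite strand, whose reads cannot be told apart as no strand setting is given in the sources used here. Alternatives were the pseudocount, the filter, no rescaling, voom on fragments estimated from coverage, a length trend, the replicate block, a single fit, another reference group, and each library left out. The code was tested on simulated data. Members not named in the text enter its counts and plots only.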

Additional observations from a re-analysis of the deposited data

Results flagged for a closer look

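The stage difference of 9 gene and knockdown pairs differed from that of siCtrl embryos by the limma interaction test. For siRfx1 8.42% of tested members passed, where 9.94% of all genes did, so the share of members was close to that of all genes. For siEtv5 1.02% of tested members passed, where 0.315% of all genes did. With siEtv5, Polr2b had a stage difference larger by 2.58 on the log2 scale. With siRfx1, the 2-cell over zygote log2 ratio lay above that of siCtrl for Gtf2a1 by 2.22, for Taf3 by 2.46, where the fall seen in siCtrl was not called, and for Taf1 by 1.69. It lay below that of siCtrl for Taf10 (-4.21), Med22 (-2.66), Gtf3a (-2.01), Med26 (-1.66) and Polr2a (-1.54). Taf10, Med22, Gtf3a and Med26 were lower at the 2-cell stage than in zygotes with siRfx1, and for Polr2a the rise seen in siCtrl was not called. The siRfx1 2-cell libraries were the shallowest and held more oocyte marker RNA than siCtrl, and the part of either in these differences was not tested. The siRfx1 2-cell values of Taf10 rested on 0 to 1101 aligned bases a library, and those of Gtf3a on 1129 to 1170. The limits of Med22 and of Polr2b are given above.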

How the results depend on the processing

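The stage counts of siCtrl (66 called), siMlx and siRfx1 embryos stayed within 1.5 times under all alternatives, with 62 to 70, 61 to 73 and 34 to 52 members when a library was left out. For siEtv5 embryos that range was 38 to 76. In siMlx zygotes 3 members were called, against 0 with no filter, 11 without rescaling, 5 with voom, 1 with the replicate block, 1 with the length trend removed, 1 in the single fit and 0 with siEtv5 as the reference, where Med20 turned to 0.26 (limma, adjusted p = 0.81), and 0 to 4 with a library left out. In siRfx1 2-cell embryos 2 were called, against 4 with a pseudocount of 0.1, 15 without rescaling, 4 with voom, 7 in the single fit, 0 with siEtv5 as the reference, and 0 to 6 with a library left out. The siEtv5 interaction had 1, against 0 with a pseudocount of 0.1, a filter at 5 FPKM, the length trend removed or the replicate block, and 0 to 5 with a library left out. The siRfx1 interaction had 8, against 5 with a pseudocount of 0.1, 14 without rescaling, 3 with the replicate block, and 2 to 20 with a library left out. Where no member was called, leaving out a library gave 0 to 1 in siRfx1 zygotes, 0 to 2 in siMlx 2-cell embryos and 0 to 3 for the siMlx interaction. Members with every 2-cell library above every zygote library numbered 30, or 46 without the siRfx1 libraries, which was chosen after seeing the data. Same-numbered libraries did not deviate together in every pair, and the numbers were not used as pairs in the main fits. With 2 or 3 libraries a group, this check cannot exclude that same-numbered libraries shared a collection, which the labels do not give. The cause of these differences was not tested. Shallow siRfx1 2-cell libraries limit low members, of which 22 to 26 rested on under 1000 aligned bases.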
